A study of Mus musculus with 20 samples.

Results

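The genes described here are 10 genes of iron and heme handling, taken by symbol from a table of 16003 genes measured in 21016 cells of the mouse spinal cord: the ferritin chains Fth1 and Ftl1, the iron exporter Slc40a1 (ferroportin), the heme-degrading enzymes Hmox1 and Blvrb, the transferrin receptor Tfrc, the divalent metal transporters Slc11a1 and Slc11a2, transferrin (Trf) and ceruloplasmin (Cp). All 10 were in the table. The cells came from female C57BL/6J mice of 8-10 weeks that received a sham T9 laminectomy or a T9 contusion (75 kdyne), and the injured cords were taken at 7 or 28 days post-injury (dpi). The sham labels carry both days. Mice ate vehicle chow or chow with PLX5622 (1200 ppm by the labels), an inhibitor of the receptor CSF1R that depletes microglia, from 2 weeks before surgery until the end point. The study's methods also state another ppm figure for this chow. Unperfused cord was dissociated, so blood cells remained, and the method does not enrich for neurons. Each of the 6 conditions is 1 library from a pool of 3-4 mice. No spread between animals can be had, so no p-value is given, and 95% intervals cover counting error alone.

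Iron enters cells bound to transferrin through its receptor, or after red cells and myelin are engulfed. Macrophages break heme down with heme oxygenase, store the iron in ferritin shells of heavy and light chains and release it through ferroportin, and ceruloplasmin oxidizes the released iron so that transferrin can carry it. Contusion of the cord causes bleeding, and microglia and monocyte-derived macrophages (MDMs) are the phagocytes that clear the lesion. Much of this system is controlled after transcription, which a count of transcripts does not record: iron regulatory proteins bind a hairpin, the iron responsive element, near the start of ferritin messages, where they block translation, and near the end of the Tfrc message, where they stabilize it.

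These hairpins are printed because they set the limit of what transcript counts can say about ferritin and transferrin receptor protein. Transcripts were searched on the sense strand for a C, any 5 bases, CAGTG and any base, with 5 bases after the loop able to pair with the 5 before it. Such a hairpin was found ahead of the coding sequence in 31 of 20580 genes (0.151%) and after it in 129 of 20978 genes (0.615%). Fth1 and Ftl1 held 1 each ahead of the coding sequence, alike at 26 of 29 positions, and Tfrc held 4 after it. Among the members, elements were listed for these genes only, so whether the others hold one is not given here. The elements are shown 5′ to 3′ from the GENCODE transcripts (GRCm38), with the bulged C and the loop in capitals.
Fth1, chr19:9982732-9982760, plus strand: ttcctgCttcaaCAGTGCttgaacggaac
Ftl1, chr7:45459779-45459807, minus strand: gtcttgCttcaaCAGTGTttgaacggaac
Tfrc, chr16:32631219-32631247, plus strand: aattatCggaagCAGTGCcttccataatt
Tfrc, chr16:32631598-32631626, plus strand: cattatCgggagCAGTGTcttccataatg
Tfrc, chr16:32631663-32631691, plus strand: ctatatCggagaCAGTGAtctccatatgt
Tfrc, chr16:32631710-32631738, plus strand: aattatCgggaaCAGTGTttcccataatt

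The promoter windows of the ferritin pair are shown because the levels of both genes moved together across cell types and libraries, as given later. RefSeq promoters (GRCm38.p6, 250 bases before to 50 after an annotated start) were matched for 6 of the 10 members (Fth1, Ftl1, Blvrb, Tfrc, Slc11a1 and Cp), with 10 windows in all. No promoter is printed for Slc40a1, Hmox1, Slc11a2 and Trf. Windows were searched for the antioxidant response element TGACNNNGC and the AP-1 motif TGANTCA on both strands, the first of which can overlap the second, and for TATAAA on the sense strand. Those letters lie in 12.4%, 7.81% and 8.32% of the 32851 promoters. Neither window printed here holds the first or the second motif, and the Ftl1 window holds TATAAA, in capitals, starting at base 18 of the annotated transcript. Of the other windows, those of Cp held the AP-1 motif at position -177 and TATAAA at position -25 from an annotated start.
Fth1, chr19:9982396-9982695, plus strand: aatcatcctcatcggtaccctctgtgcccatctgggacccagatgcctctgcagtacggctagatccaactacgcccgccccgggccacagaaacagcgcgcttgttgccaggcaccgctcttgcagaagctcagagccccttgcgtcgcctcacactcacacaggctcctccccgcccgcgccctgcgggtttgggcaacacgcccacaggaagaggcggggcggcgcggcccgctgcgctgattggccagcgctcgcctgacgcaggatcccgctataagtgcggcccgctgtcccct
Ftl1, chr7:45459837-45460136, minus strand: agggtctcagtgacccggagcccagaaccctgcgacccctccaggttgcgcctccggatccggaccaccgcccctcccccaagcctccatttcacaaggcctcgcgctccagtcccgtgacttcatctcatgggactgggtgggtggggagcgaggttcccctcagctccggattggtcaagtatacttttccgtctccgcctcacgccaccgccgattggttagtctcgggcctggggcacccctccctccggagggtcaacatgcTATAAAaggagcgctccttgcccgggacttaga

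Cells were compared as the sum of their unique molecular identifiers (UMIs, 1 per captured transcript) in each of the study's 14 clusters and each library, expressed as CPM, the gene's UMIs for each 1000000 UMIs of that sum. Because UMIs were captured at the 3′ end, CPM counts molecules and needs no correction for gene length. Clusters are named here from marker genes as microglia-like, MDM-like and so on, and the suffix is dropped below. Cluster 3, led by Retnla, Timd4 and Cd209a, and cluster 13, led by Dnajc5b and Slc26a7, are left unnamed, and the T cell cluster also held natural killer genes such as Gzma and Ncr1. Levels are given for the 66 combinations of cluster and library with at least 20 cells. Libraries held 492 to 9846 cells and 2606149 to 35694246 UMIs, and the 3 PLX5622 libraries kept 29, 61 and 126 microglia (sham, 7 and 28 dpi) against 674, 2154 and 3974 with vehicle.

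**Figure D1:**
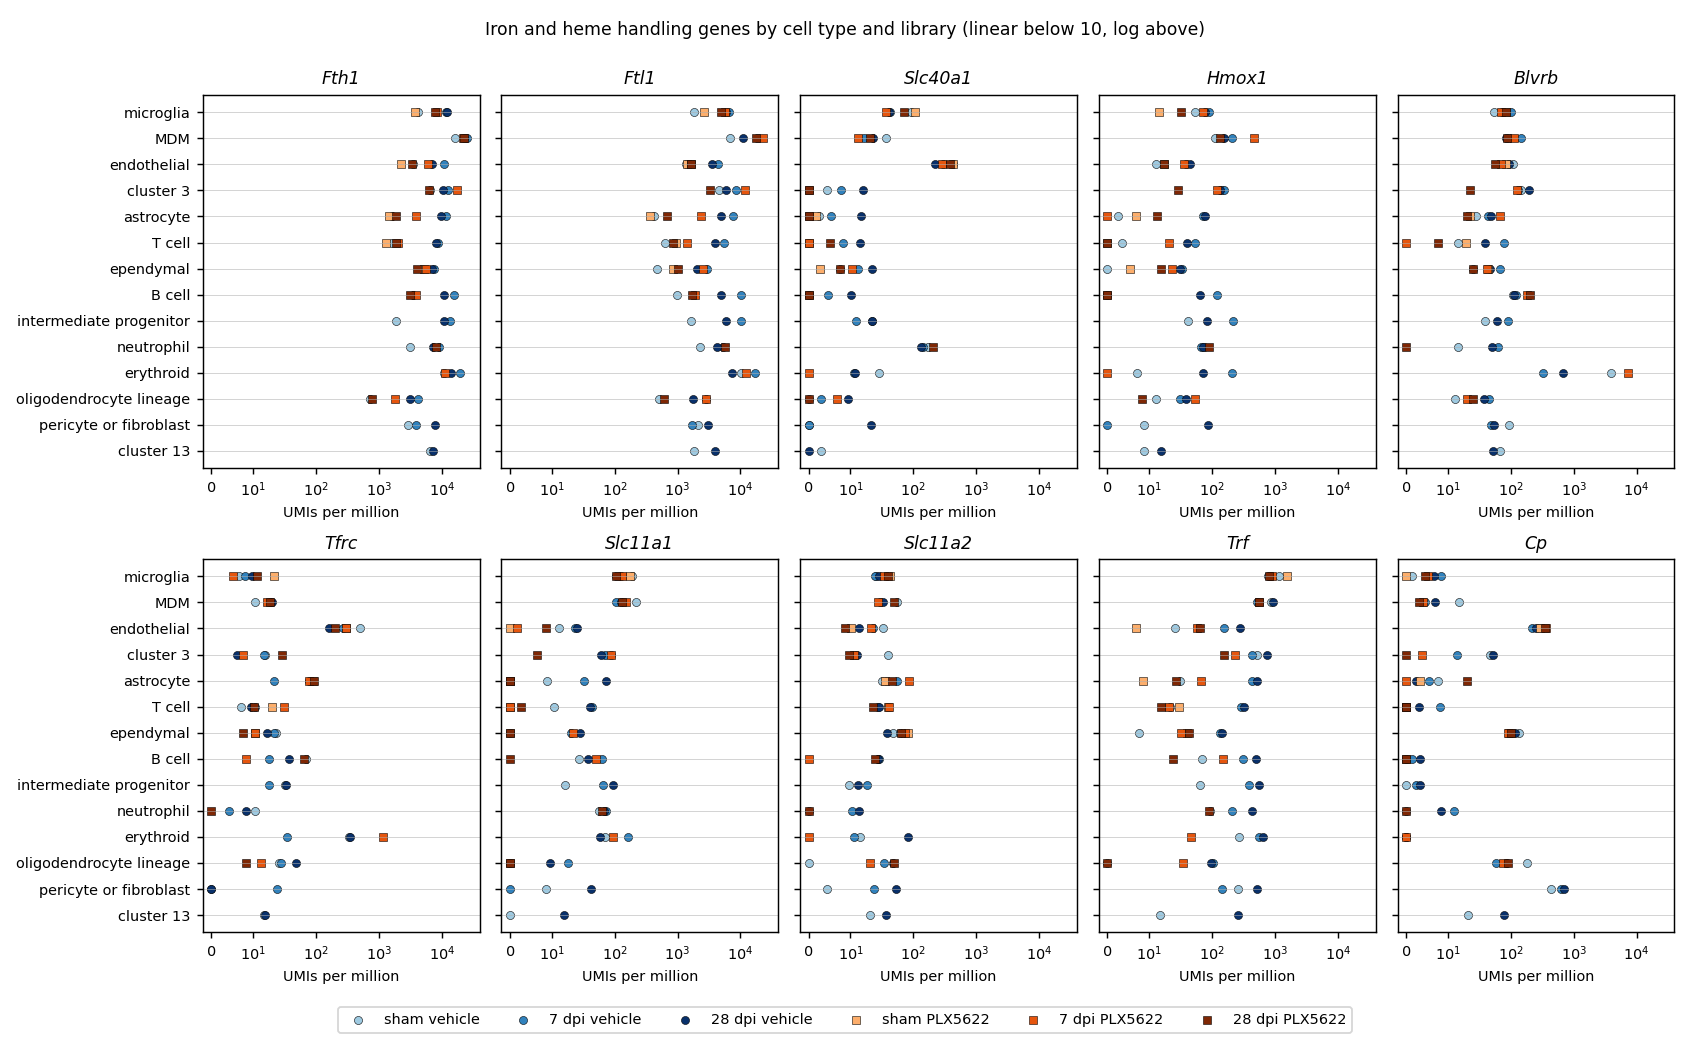
Level of each of the 10 genes (x axis, CPM, linear below 10 and logarithmic above) in 14 clusters (y axis), with 1 point per library holding at least 20 cells; circles are vehicle and squares PLX5622 libraries. Ferritin is spread over every cluster with its highest points in MDMs, while Slc40a1, Tfrc and Cp sit highest in endothelial, erythroid or pericyte or fibroblast clusters.

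The plot of levels by cluster shows 2 kinds of member. By the median over libraries, the ferritin chains, Hmox1, Slc11a1 and Trf were highest in the phagocyte clusters, Slc40a1, Tfrc, Cp and Blvrb were highest in other clusters, and Slc11a2 was low in all. Ferritin was also far more abundant than the rest: 1302129 UMIs of Fth1 and 813508 of Ftl1 were counted in the whole table, followed by 47803 of Trf, whereas the other 7 members had 2282 (Cp) to 10530 (Hmox1). Copies of ferritin genes elsewhere in the genome could take or give reads, so the absolute levels of Fth1 and Ftl1 are uncertain.

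Fth1 encodes the heavy chain of ferritin, which oxidizes iron as it is stored. By the median over libraries MDMs held the highest level, with 16335 CPM in sham vehicle, 25331 at 7 dpi and 22484 at 28 dpi, and 21519 and 22596 CPM at 7 and 28 dpi with PLX5622; sham PLX5622 had only 9 MDMs. Every MDM library thus lay above every microglial library. The MDM range of 16335 to 25331 overlapped those of the erythroid cluster (10723 to 19592) and cluster 3 (6379 to 17418). The erythroid overlap came from the 7 dpi vehicle library alone, whose cells in that cluster went against its name, as given later. The other erythroid libraries gave 10723 CPM (sham vehicle), 13999 (28 dpi vehicle) and 11116 (7 dpi PLX5622). In microglia, Fth1 stood at 4209 CPM in sham, 11576 at 7 dpi and 12064 at 28 dpi with vehicle, and at 3799, 8267 and 7969 CPM with PLX5622. Both sham libraries were the lowest for microglia, and the 2 injured vehicle libraries were the highest.

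The light chain Ftl1, which aids formation of the iron core, was likewise highest, by the median, in MDMs and next highest in the erythroid cluster. Its level in MDMs was 6885 CPM in sham, 18389 at 7 dpi and 11128 at 28 dpi with vehicle, and 22729 and 17382 CPM at 7 and 28 dpi with PLX5622. In microglia it was 1799, 6651 and 5952 CPM in the 3 vehicle libraries. The PLX5622 libraries gave 2598, 5721 and 4972 CPM, so all 4 injured libraries lay above both sham libraries for microglia. MDMs held 73.0% of all Fth1 UMIs and 76.1% of all Ftl1 UMIs in the 7 dpi vehicle library, against 50.5% and 47.5% in sham vehicle. The share of all UMIs that MDMs held also differed, 55.7% at 7 dpi and 19.7% in sham, as did their share of cells, 40.6% and 10.3%.

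After injury, both ferritin chains were over 2-fold higher in microglia of vehicle-fed mice. The log2 ratio of 7 dpi to sham was 1.46 for Fth1 (95% interval 1.43 to 1.49) and 1.89 for Ftl1 (1.84 to 1.93). At 28 dpi the ratios were 1.52 (1.49 to 1.55) and 1.73 (1.68 to 1.77). In MDMs, only Ftl1 at 7 dpi passed 2-fold, with a log2 ratio of 1.42 (1.39 to 1.45); Fth1 at 7 dpi gave 0.63 (0.61 to 0.65), and at 28 dpi Fth1 gave 0.46 and Ftl1 0.69. The study states an upper limit of 3000 genes per cell, which was added here as an alternative after seeing the data. With cells above it left out, the MDM ratios at 7 and 28 dpi were 1.34 and 1.17 for Fth1. For Ftl1 they were 1.97 and 1.26. The bulk of genes moved the other way: the median log2 ratio over all genes with at least 100 UMIs was -0.54 and -0.44 in microglia at 7 and 28 dpi and -0.25 at both days in MDMs. Scaled with TMM, a method that sets the bulk of genes level, microglial Fth1 gave 2.00 and 1.96 and Ftl1 2.42 and 2.16.

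Against all genes tested, 2 of the 8 members with at least 100 UMIs were at least 2-fold higher in microglia at 7 dpi (Fth1 and Ftl1) where 4.02% of all genes were, and 1 was at least 2-fold lower (Slc40a1) where 21.5% of all genes were. At 28 dpi the members' counts were again 2 and 1, against 3.62% higher and 12.5% lower over all genes. Tfrc and Cp had too few UMIs to be counted in microglia. The median log2 ratio of the measured members was 0.32 at 7 dpi and 0.28 at 28 dpi. In MDMs all 10 members could be counted: at 7 dpi 1 was higher (Ftl1) and 3 were lower (Slc40a1, Slc11a1 and Cp), with background shares of 4.09% and 11%, and at 28 dpi none was higher and 1 lower (Cp), with 1.53% and 5.63%. Under TMM the counts at 7 dpi were 4 higher and 0 lower in microglia, where 10.4% and 4.95% of all genes were, and 3 higher and 1 lower in MDMs, where 7.44% and 5.72% were.

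**Figure D2:**
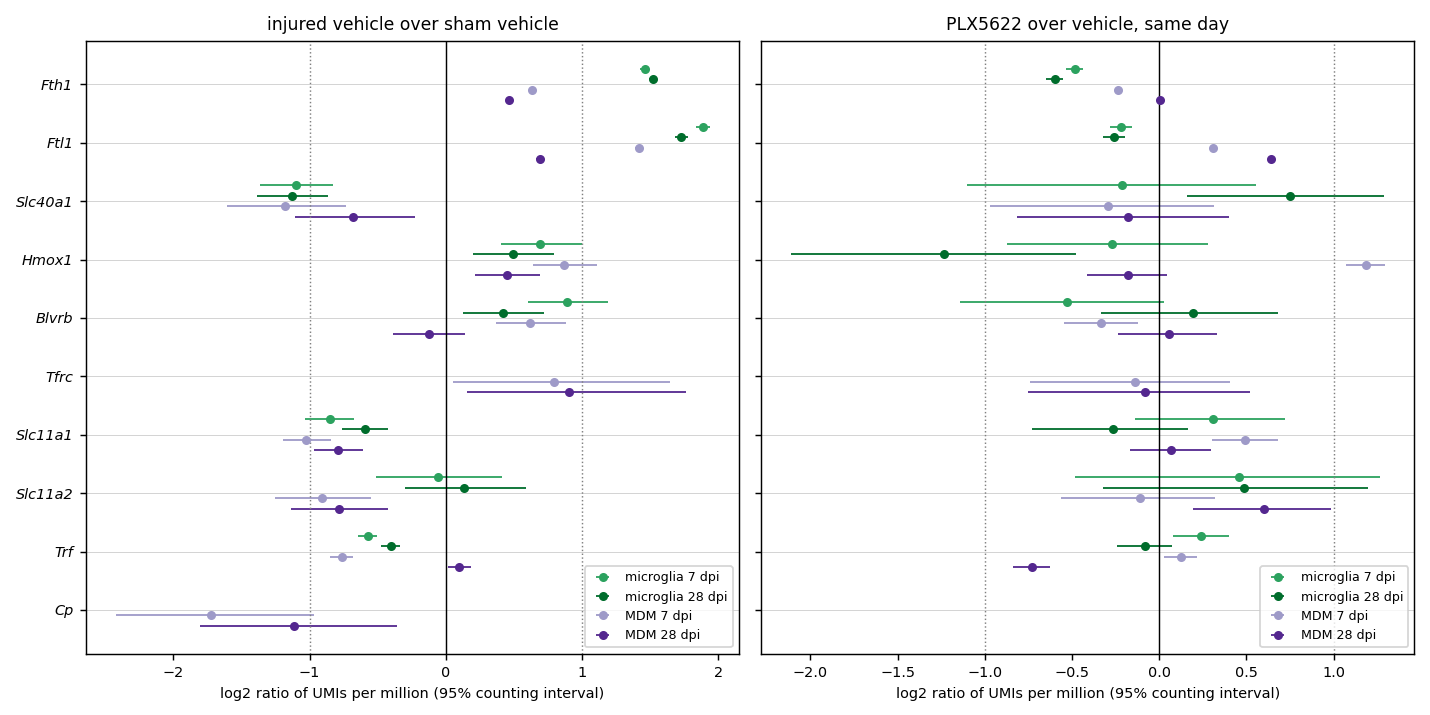
Log2 ratio of CPM (x axis, bars are 95% counting intervals) for members with at least 100 UMIs, after injury with vehicle (left) and for PLX5622 over vehicle on the same day (right); dotted lines mark 2-fold. Ferritin lies to the right and Slc40a1 and Slc11a1 to the left of 0 in all 4 injury comparisons, and Hmox1 at 7 dpi in MDMs is the only point right of the upper dotted line for the diet.

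The balance of the 2 chains differed between clusters. Ependymal cells, which line the central canal, had a median of 3.67 Fth1 UMIs per Ftl1 UMI over 6 libraries, microglia 1.67, MDMs 1.38 and erythroid cells 1.10. In MDMs the ratio was 2.37 (95% interval 2.32 to 2.43) in sham vehicle, 1.38 (1.37 to 1.38) at 7 dpi and 2.02 (2.01 to 2.03) by 28 dpi. With PLX5622 it was 0.947 (0.934 to 0.960) at 7 dpi, the only MDM library with fewer Fth1 than Ftl1 UMIs, and 1.30 (1.28 to 1.32) at 28 dpi. Microglia showed the same order with vehicle, at 2.34, 1.74 and 2.03, while their 3 PLX5622 libraries lay lower, between 1.45 and 1.60. Ependymal cells gave 10.2 (8.81 to 12.0) in sham vehicle, 2.58 at 7 dpi and 3.40 at 28 dpi. With PLX5622 they gave 6.25, 2.25 and 3.94. A list of 12 myeloid genes, described below, summed in them to 416, 9156 and 8808 CPM with vehicle. With PLX5622 the list summed to 672, 3252 and 1717 CPM. The part of phagocyte RNA in the ependymal ratio was not tested.

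**Figure D3:**
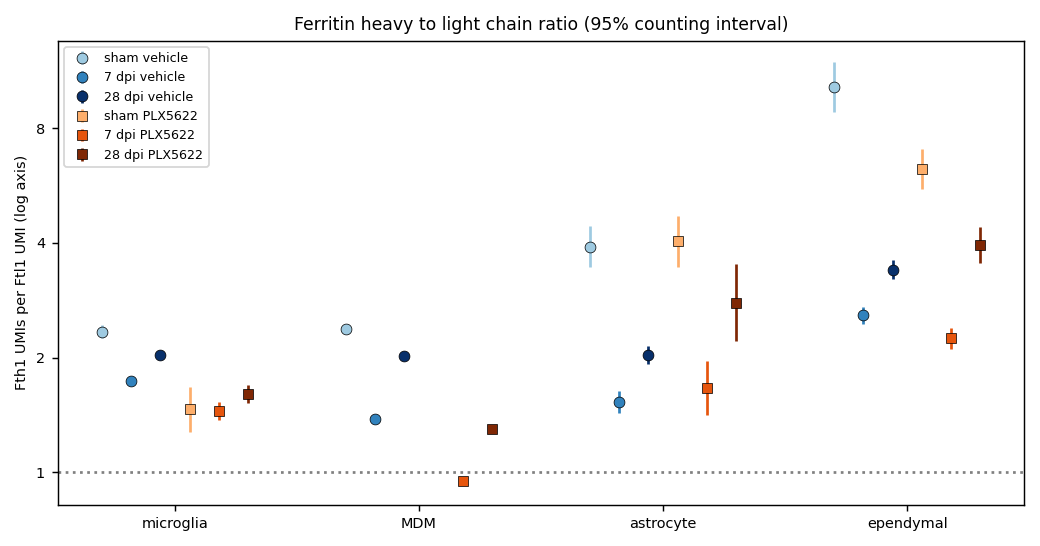
Fth1 UMIs per Ftl1 UMI (y axis, logarithmic) in microglia, MDMs, astrocytes and ependymal cells, 1 point per library with its 95% counting interval; circles are vehicle and squares PLX5622. Within the vehicle libraries the 7 dpi point is the lowest in each of these 4 clusters. The same holds for T and B cells, making 6 of the 13 clusters with all 3 vehicle libraries. In the other 7 clusters sham or 28 dpi is the lowest. The part of phagocyte RNA in the astrocyte and ependymal ratios was not tested.

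Ferritin transcripts were also higher after injury in clusters that are not phagocytes. Between the sham and 7 dpi vehicle libraries, Fth1 was higher in all 13 clusters that could be compared, with log2 ratios from 0.46 to 2.85. At 28 dpi it was higher in all 14. The clusters compared include microglia, MDMs, cluster 3 and neutrophils. They also include the erythroid and intermediate progenitor clusters, whose myeloid list at 7 dpi with vehicle summed to 46399 and 40523 CPM. Ftl1 was higher in 12 of 13 clusters at 7 dpi and in 13 of 14 at 28 dpi. The exceptions were the pericyte or fibroblast cluster at 7 dpi (-0.31, -0.69 to 0.05) and the erythroid cluster at 28 dpi (-0.51, -0.65 to -0.37). Astrocytes gave 1620 CPM in sham, 11641 at 7 dpi and 9884 at 28 dpi with vehicle, but 1447, 3866 and 1907 CPM with PLX5622. T cells gave 1602, 8587 and 8227 CPM with vehicle and 1297, 2012 and 1843 CPM with PLX5622. The injured vehicle libraries thus stood apart from the other 4 libraries in both clusters.

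Transcripts of phagocytes moved with this pattern. A list of 12 myeloid genes (such as Tyrobp, C1qa and Lyz2) summed in astrocytes to 2255, 25420 and 24035 CPM in the sham, 7 and 28 dpi vehicle libraries, all 12 genes being above 0 in each, and to 568, 3561 and 2303 CPM with PLX5622, with 9, 11 and 12 genes above 0. In T cells the list gave 4629, 23213 and 20345 CPM with vehicle and 1984, 3470 and 3263 CPM with PLX5622, with 6 to 12 genes above 0. Microglia held 48461 to 58891 CPM of it and MDMs 46848 to 52731. The part of free or attached phagocyte RNA in the ferritin of other clusters was not tested. Ependymal cells held Fth1 with little of the list: with 416 CPM of it in sham vehicle, from 9 of the 12 genes, they had 4906 CPM of Fth1, above the 4209 CPM of sham microglia.

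**Figure D4:**
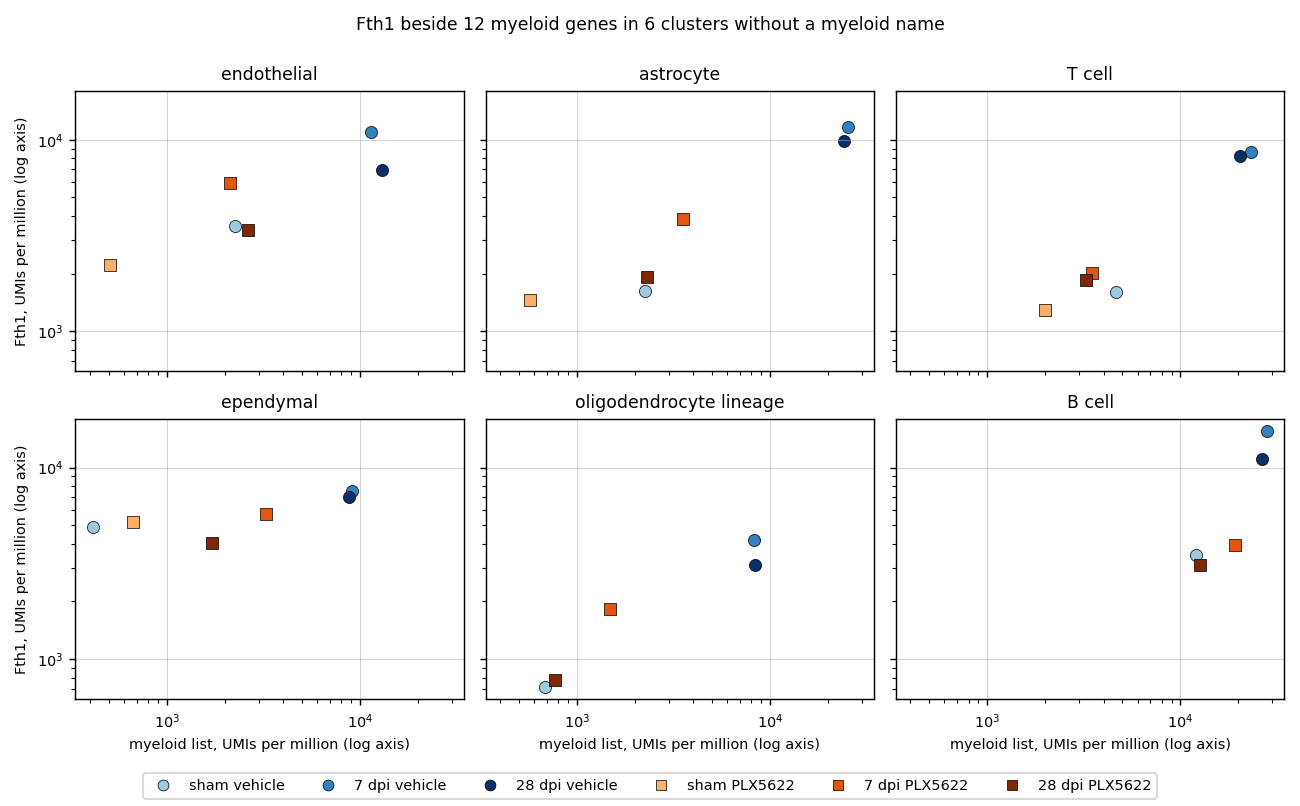
Fth1 (y axis) against the summed 12-gene myeloid list (x axis), both in CPM on logarithmic axes, in 6 clusters without a myeloid name; 1 point per library with at least 20 cells. The 7 and 28 dpi vehicle libraries lie at the upper right of each panel, at 8222 to 28024 on the x axis.

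Endothelial cells carried the most Slc40a1, the exporter that passes iron from the blood vessel wall into tissue. Their level was 434 CPM in sham, 296 at 7 dpi and 220 at 28 dpi with vehicle, and 420, 283 and 378 CPM with PLX5622. Neutrophils came next with 132 to 205 CPM in 4 libraries, then microglia with 36.5 to 106 CPM in 6, and these 3 ranges did not overlap each other. At 1000 UMIs per cell, 30.3% of endothelial cells in sham vehicle held a Slc40a1 UMI (exact binomial interval 20.3 to 41.9%) and 8.03% of microglia (5.89 to 10.6%), against 0 of 61 T cells (upper limit 5.87%), a cluster used as the background; at full depth the shares were 62.2%, 23% and 0% with median depths of 3024, 3178 and 3669 UMIs.

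With vehicle, Slc40a1 was lower after injury in both phagocyte clusters and in endothelial cells. Microglia gave 90.6 CPM in sham, 42.4 at 7 dpi and 41.5 at 28 dpi with vehicle. The log2 ratios were -1.10 (interval -1.37 to -0.83) and -1.13 (-1.39 to -0.86). With PLX5622 microglia gave 106, 36.5 and 69.8 CPM, from only 15, 14 and 30 UMIs. Under TMM the microglial ratios with vehicle were -0.56 and -0.69, within 2-fold. MDMs gave 36.7, 16.1 and 22.9 CPM with vehicle, a log2 ratio of -1.18 (-1.61 to -0.73) at 7 dpi, or -0.92 under TMM. In endothelial cells the log2 ratio was -0.55 (-0.83 to -0.26) at 7 dpi, or -0.40 under TMM, and at 28 dpi it was -0.98 (-1.31 to -0.65), or -0.83 under TMM.

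Tfrc, which takes up transferrin-bound iron, was highest in the erythroid and endothelial clusters. The erythroid cluster ranged from 34.6 CPM (9 UMIs) at 7 dpi with vehicle to 1168 CPM (25 UMIs) at 7 dpi with PLX5622. Its range thus enclosed that of endothelial cells. The cells of this cluster differed between those libraries. Hemoglobin genes summed to 3219 and 173330 CPM and the myeloid list to 46399 and 3129 CPM. Endothelial cells gave 501, 271 and 162 CPM in the sham, 7 and 28 dpi vehicle libraries, and 296, 296 and 202 CPM with PLX5622. Sham vehicle was thus the highest and 28 dpi vehicle the lowest of the 6. The endothelial log2 ratio with vehicle was -0.89 (-1.16 to -0.61) at 7 dpi, or -0.74 under TMM, and at 28 dpi it was -1.63 (-1.97 to -1.29), or -1.48 under TMM. With PLX5622 it was -0.00056 (-0.32 to 0.31) at 7 dpi, a value whose sign turned under TMM (0.06), and -0.55 (-1.05 to -0.08) at 28 dpi. The difference between the diets was not tested. Microglia had only 5.22 to 21.2 CPM of Tfrc and MDMs 10.6 to 19.8. In MDMs the log2 ratio to sham with vehicle was 0.79 (0.05 to 1.64) at 7 dpi, or 1.05 under TMM. At 28 dpi it was 0.90 (0.15 to 1.76), or 1.15 under TMM. Both MDM ratios rest on only 15 UMIs in sham.

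Ceruloplasmin, the oxidase that helps load iron onto transferrin, was highest in the pericyte or fibroblast cluster, with 432, 624 and 701 CPM in the sham, 7 and 28 dpi vehicle libraries. Endothelial cells followed at 220 to 361 CPM and ependymal cells at 89.6 to 137, and these 3 ranges did not overlap. The oligodendrocyte lineage cluster, led by Gpr17 and Neu4, gave 58.0 to 179 CPM. Astrocytes had 0 to 19.8 CPM. In MDMs the log2 ratio to sham was -1.73 (-2.42 to -0.96) for 7 dpi, and for 28 dpi -1.11 (-1.81 to -0.36), or -0.87 under TMM, from only 21 UMIs in sham, of which 66.7% lay in 5 of 185 cells.

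Transferrin, the plasma carrier of iron that glia also make, was highest in microglia and MDMs. Microglia gave 1140, 765 and 860 CPM with vehicle and 1553, 905 and 812 CPM with PLX5622, and MDMs gave 878, 517 and 939 CPM with vehicle and 563 and 566 CPM at 7 and 28 dpi with PLX5622. The ranges of the 2 clusters overlapped. The oligodendrocyte lineage cluster, a usual source of Trf in the cord, had 0 to 104 CPM; it was led by precursor genes. In microglia the log2 ratio to sham was -0.57 (-0.65 to -0.50) for 7 dpi, and for 28 dpi -0.41 (-0.47 to -0.34), but under TMM -0.04 and 0.03, so the direction at 28 dpi flipped with the scaling. MDMs gave -0.77 (-0.85 to -0.68) at 7 dpi, or -0.50 under TMM.

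In T cells Trf was higher in the same libraries as ferritin. Higher Trf was not particular to T cells. With vehicle at 7 dpi, Trf was at least 2-fold higher than in sham in 7 of 10 clusters compared. At 28 dpi this held in 8 of 11 clusters. On either day it was at least 2-fold lower in 0 of them. T cells held 21.6 CPM in sham, 292 at 7 dpi and 322 at 28 dpi with vehicle, but 29.5, 20.5 and 15.3 CPM with PLX5622. At 1000 UMIs per cell and with vehicle, 14.9% of T cells at 7 dpi and 15.4% at 28 dpi held a Trf UMI. In microglia 53.4% and 54.4% did. The T cell shares are used as the background for those libraries, and the source of Trf in T cells was not tested. Unthinned shares were 24.2% and 22.4% of T cells and 82.9% and 70.0% of microglia. Median depths were 1510, 1233, 2902 and 1686 UMIs in that order.

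Heme oxygenase 1 splits heme into iron, carbon monoxide and biliverdin. By the median over libraries Hmox1 was highest in MDMs, at 112, 205 and 153 CPM in the sham, 7 and 28 dpi vehicle libraries, followed by cluster 3 at 28.9 to 156 CPM, with overlapping ranges. Single libraries differed from that order, with 143 CPM in cluster 3 of sham vehicle and 219 CPM in the intermediate progenitor cluster at 7 dpi with vehicle. The myeloid list in that progenitor cluster summed to 7815 CPM in sham and 40523 CPM at 7 dpi with vehicle. The part of phagocyte RNA in its Hmox1 was not tested. Microglia gave 54.4, 88.0 and 76.6 CPM with vehicle and 14.1, 73.0 and 32.6 CPM with PLX5622, the sham value resting on 2 UMIs. After injury with vehicle the log2 ratio was 0.69 (0.40 to 1.00) and 0.49 (0.20 to 0.79) in microglia at 7 and 28 dpi and 0.87 (0.64 to 1.11) and 0.45 (0.22 to 0.69) in MDMs. None of these passed 2-fold; under TMM both 7 dpi ratios did (1.23 and 1.13).

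Among the diet comparisons in microglia and MDMs, that at 7 dpi in MDMs gave the only member at least 2-fold higher with PLX5622. Hmox1 stood at 465 CPM with PLX5622 and 205 CPM with vehicle, a log2 ratio of 1.18 (1.07 to 1.29). Few cells carried it: 5 of the 100 PLX5622 MDMs held 63.0% of their 812 Hmox1 UMIs, and 1 cell alone held 191, whereas the richest 5% of MDMs held 34.8% of the UMIs at 7 dpi with vehicle. The deepest cells of this library weigh most in the sum, the median MDM having 15940 UMIs against 5777 with vehicle. At 1000 UMIs per cell 18.2% of PLX5622 MDMs (11.2 to 27.2%) and 15.0% of vehicle MDMs (13.7 to 16.3%) held an Hmox1 UMI, intervals that overlap, and at full depth 76.0% and 55.9% did. T cells of the same libraries gave 0 of 23 (upper limit 14.8%) and 4.13% after thinning, and 8.70% and 11.1% at full depth, with median depths of 3617 and 1510 UMIs. The log2 ratio on the thinned counts was 0.94, under 2-fold. It was 1.32 with each cell weighted alike and 1.99 without cells of over 3000 genes. Over all clusters, that limit left out 129 of the 504 cells of the 7 dpi PLX5622 library. With vehicle at 7 dpi it left out 289 of 7439 cells, so the remaining cells of the diets are not alike in selection.

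**Figure D5:**
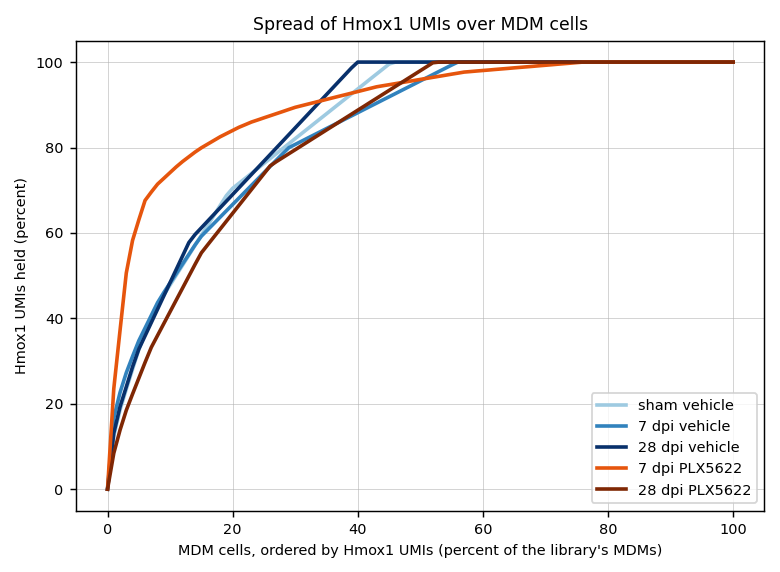
Share of a library's Hmox1 UMIs in MDMs (y axis, percent) held by its MDM cells ordered from most to fewest Hmox1 UMIs (x axis, percent of cells), 1 line per library with at least 20 MDMs. The line for 7 dpi PLX5622 reaches 63.0% at 5% of cells, and the other 4 lie between 26.0% and 34.8% there.

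Biliverdin reductase B, which acts on biliverdin and flavins, is abundant in red cells. Blvrb was highest in the erythroid cluster, at 3859 CPM in sham, 323 at 7 dpi and 684 at 28 dpi with vehicle and 7333 CPM at 7 dpi with PLX5622. The libraries low in Blvrb were low in hemoglobin: 3 hemoglobin genes summed to 119613, 3219, 4269 and 173330 CPM in that order, and the myeloid list to 14525, 46399, 39355 and 3129 CPM, all 3 hemoglobin genes being above 0 in each. In the injured vehicle libraries the cells of this cluster thus went against its erythroid name, with a myeloid list close to that of MDMs. In microglia the log2 ratio was 0.89 (0.60 to 1.19) for 7 dpi, or 1.43 under TMM, and 0.42 (0.13 to 0.72) for 28 dpi. MDMs gave 0.62 (0.37 to 0.88) and -0.13 (-0.39 to 0.14), the last being 0.12 under TMM. Leaving out every cell with 10 or more hemoglobin UMIs gave 1.00 for microglia at 7 dpi, just past 2-fold.

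Slc11a1 moves metal ions out of the phagosome and Slc11a2 takes up ferrous iron. Slc11a1 was highest by the median in MDMs and microglia, with 216, 106 and 125 CPM and 190, 105 and 126 CPM in the 3 vehicle libraries, sham being the highest of the vehicle libraries in both. The erythroid cluster at 7 dpi with vehicle, the one high in the myeloid list, lay above both on that day, at 165 CPM from 43 UMIs. Its log2 ratio to sham in MDMs was -1.02 (-1.20 to -0.85) for 7 dpi and -0.79 (-0.97 to -0.61) for 28 dpi. In microglia it was -0.85 (-1.03 to -0.67) and -0.60 (-0.76 to -0.42). Under TMM these became -0.76, -0.54, -0.31 and -0.16, none past 2-fold. Slc11a2 was low everywhere, with its highest median in ependymal cells (62.2 CPM) and overlapping ranges between neighbours in that order. In MDMs its log2 ratio was -0.91 (-1.25 to -0.55) at 7 dpi, and in microglia -0.06 (-0.51 to 0.41), or 0.48 under TMM.

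For the diet, the other 3 comparisons held few members past 2-fold. In microglia at 7 dpi 0 of 8 measured members were at least 2-fold higher or lower, with 1.89% and 4.88% of all genes. At 28 dpi none was higher (1.64% of all genes) and 1 lower (5.87%), Hmox1 at 32.6 against 76.6 CPM, a log2 ratio of -1.23 (-2.11 to -0.48) from 14 UMIs in PLX5622 microglia. In MDMs 1 of 9 was higher and 0 lower at 7 dpi (1.83% and 2.17%), and none passed at 28 dpi (2.33% and 2.48%). Smaller differences with narrow intervals were lower Fth1 in microglia at 7 dpi (-0.49, -0.54 to -0.43) and 28 dpi (-0.60, -0.65 to -0.55), higher Ftl1 in MDMs at 28 dpi (0.64, 0.62 to 0.66) and lower Trf in MDMs at 28 dpi (-0.73, -0.84 to -0.62). Ftl1 in MDMs at 7 dpi gave 0.31 (0.29 to 0.32), but -0.33 without cells of over 3000 genes. Its direction thus depended on whether those cells were kept, and the reason was not tested. Fth1 in MDMs at 28 dpi gave 0.01 (-0.01 to 0.02), but -0.01 under TMM and -0.19 without cells of over 3000 genes.

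A wider list of 50 iron and heme genes, 44 of which were in the table, is given for comparison. In microglia 0 of 25 measured were at least 2-fold higher at 7 dpi and 4 lower, with 4.02% and 21.5% of all genes. At 28 dpi 0 were higher and 7 lower, with 3.62% and 12.5% of all genes. The medians were -0.56 and -0.53 beside -0.54 and -0.44 over all genes. The lowest at 7 dpi were Cpox (-1.73) and Ppox (-1.21), enzymes of heme synthesis, and the metal importer Slc39a8 (-1.26), and at 28 dpi Slc39a8 (-1.42), the hepcidin regulator Hfe (-1.20) and the heme and folate transporter Slc46a1 (-1.18). The highest were Blvra (0.43), Lrp1 (0.38) and Urod (0.33) at 7 dpi, and Blvra (0.26) and Urod (0.14) were among the highest at 28 dpi.

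In MDMs 3 of 29 measured were higher at 7 dpi and 2 lower, with 4.09% and 11% of all genes, and 0 of 25 were higher and 1 lower at 28 dpi, with 1.53% and 5.63%. The medians were -0.09 and -0.18, beside -0.25 over all genes at both days. The higher genes were Lrp1, a scavenger receptor for heme bound to hemopexin (207 to 467 CPM, log2 ratio 1.17), the ferric reductase Steap3 (1.26, from 5 UMIs in sham) and the hemoglobin-binding protein Hp, which had 0 UMIs in sham and 124 at 7 dpi. Set against a floor of 3 UMIs in sham, Hp gave a log2 ratio of 1.56, a point value and not a lower limit. The lowest were Cpox (24.7 to 8.75 CPM), Abcg2 (-1.05) and Slc46a1 (-0.98). At 28 dpi they were Cpox (-1.03), Fech (-0.86) and Slc46a1 (-0.84), and the highest were Lrp1 (0.39), Blvra (0.37) and Slc25a28 (0.32).

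With PLX5622, 0 of 20 listed genes were higher and 2 lower in microglia at 7 dpi (1.89% and 4.88% of all genes), namely Slc48a1 (-1.76, 4 UMIs) and Urod (-1.52, -4.58 to 0.37, 2 UMIs), followed by Cisd1 (-0.45), and the highest were Ireb2 (0.98), Abcg2 (0.85) and Fech (0.46). At 28 dpi (1.64% and 5.87% of all genes) 1 of 22 was higher, Slc46a1 (1.12), and 1 lower, Cpox (-1.26, -3.56 to 0.31, 3 UMIs), with Lrp1 (0.79) and Hfe (0.57) next above and Ireb2 (-0.97) next below. MDMs at 7 dpi (1.83% and 2.17% of all genes) had 2 of 29 higher, Hp (3.14) and Alas1 (1.03), the first enzyme of heme synthesis, and 2 lower, Slc46a1 (-1.23) and Urod (-1.11), with Cpox (0.77) and Ppox (-0.89) next. MDMs at 28 dpi (2.33% and 2.48% of all genes) had 0 of 25 in either direction, with Ppox (-0.55) and Alad (-0.41) among the lowest and Slc48a1 (0.47), Fech (0.61) and Lrp1 (0.96) the highest.

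The likeness of each member to other genes was measured as Pearson's r of log2(CPM + 10) over the 66 groups, among 7207 genes with at least 1000 UMIs. Groups of 1 library share depth and free RNA, and r is a description. The gene most like Fth1 was Ftl1 (0.90), followed by Gabarap (0.86) and Ctsb (0.82), and Ftl1 was followed by Sdcbp (0.84) and Creg1 (0.84). Slc40a1 was most like Arap3 (0.92), Slc6a6 (0.76) and Acvrl1 (0.76), and Tfrc most like the transporters Slc7a5 (0.81) and Slc38a5 (0.80) and then Car2 (0.74). Hmox1 was most like Lilrb4 (0.84), Lyz2 (0.84) and Rnf149 (0.83). Slc11a1 went with the Fc receptors Fcgr3 (0.92) and Fcgr1 (0.90) and with Tbxas1 (0.90), and Trf with Mpeg1 (0.92), Csf1r (0.91) and Ctsz (0.91). Cp went with Cald1 (0.92), Col4a1 (0.92) and Nr2f2 (0.90), and Blvrb with Slc25a37 (0.80) and Sec61g (0.79). Slc11a2 had the weakest neighbours, Fam58b (0.65), Ergic3 (0.64) and Hspa9 (0.63).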

How the data were processed

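Single cells of dissociated cord were sequenced with Chromium 3′ version 3 chemistry. The authors aligned reads with Cell Ranger 3.0 (GRCm38/mm10) and clustered cells in Seurat 3.2.0. The deposited counts are raw UMIs per gene and cell in 1 table, with cluster numbers beside it. The library matrices held 21270 barcodes, of which 21016 are cells of the table. Any 2 libraries shared at most 21 barcodes. The stated gene limits would leave 20299 cells, since 716 cells exceed 3000 genes; all were kept, and doublets were not removed. The 14 bulk samples were not analysed here.

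UMIs were summed per cluster and library and scaled to CPM. Ratios carry exact conditional binomial intervals and CPM exact Poisson ones, at 95%. A gene needed 100 or more UMIs over both libraries and was counted as at least 2-fold by its point value; a 0 was set to 3 UMIs per library. No test was run, since each condition is 1 library. Depth was 2606149 to 35694246 UMIs per library. Ratio code was tested on simulated data. The members and lists were chosen with earlier results of these data known. Named genes were the 10 members, the 3 highest and 3 lowest listed genes per comparison and the 3 genes most like each member; other genes were named as cluster leaders after their values were seen. Some genes that this rule names are not reported here. Clusters were named from 79 markers of 14 cell types. Before counting cells that held a UMI, each cell was thinned to 1000 UMIs; these shares have Clopper-Pearson intervals. Alternatives were edgeR 4.0.16 TMM and DESeq2 1.42.0 size factors (scaling only), equal weight per cell, totals without 95 ribosomal protein and 3 hemoglobin genes, thinning, cells with at least 500 genes, cells with fewer than 10 hemoglobin UMIs and no UMI minimum. Python 3.11.15 and R 4.3.3 were used.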

Additional observations from a re-analysis of the deposited data

Results flagged for a closer look

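Some members moved in opposite directions in different clusters between the sham and 7 dpi vehicle libraries; with 1 library per condition the differences were not tested. The log2 ratio of Blvrb was 1.25 in the intermediate progenitor cluster, led by cell division genes such as Top2a and Birc5, and -3.58 in the erythroid cluster, a difference of 4.83. Hemoglobin genes in the erythroid cluster summed to 119613 CPM in sham and 3219 CPM at 7 dpi. Slc11a1 gave 2.03 in the intermediate progenitor cluster, from 5 UMIs in sham, and -1.02 in MDMs, a difference of 3.06. The myeloid list in the intermediate progenitor cluster summed to 7815 CPM in sham and 40523 CPM at 7 dpi.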

How the results depend on the processing

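No paired analysis was possible because each condition is 1 library, and no replicate could be left out. Counts of members at least 2-fold higher or lower are given here as main value then alternative, with the share of all genes under the alternative in parentheses. With TMM and with DESeq2 size factors alike, microglia at 7 dpi went from 2 to 4 higher (10.4% by TMM) and from 1 to 0 lower (4.95%), microglia at 28 dpi from 1 to 0 lower (2.83%), MDMs at 7 dpi from 1 to 3 higher (7.44%) and from 3 to 1 lower (5.72%), and MDMs at 28 dpi from 0 to 1 higher (2.93%) and from 1 to 0 lower (2.48%); these methods set the median gene near 0 by construction. Totals without ribosomal protein and hemoglobin genes took microglia at 7 dpi from 1 to 0 lower (14.1%). With each cell weighted alike, MDMs went to 2 higher at 7 dpi (6.14%) and to 2 higher (2.57%) and 2 lower (11.4%) at 28 dpi, and PLX5622 microglia at 7 dpi to 1 higher (6.29%) and 1 lower (9.01%). Thinning to 1000 UMIs gave 0 lower for microglia at 28 dpi (11.9%), 2 higher (9.44%) and 0 lower (11.8%) for MDMs at 7 dpi, 0 lower for MDMs at 28 dpi (8.94%), 1 lower for PLX5622 microglia at 7 dpi (10.2%), 1 higher (2.62%) and 2 lower (9.84%) for them at 28 dpi, and 0 higher (3.99%) and 1 lower (7.83%) for PLX5622 MDMs at 7 dpi; thinning leaves fewer UMIs. Cells with at most 3000 genes, an alternative chosen after seeing the data, gave 2 higher for MDMs at 7 dpi (7.17%) and 2 higher (3.74%) and 2 lower (10.7%) at 28 dpi. Without a UMI minimum, 1 member (Cp, with 4 UMIs) was lower in PLX5622 MDMs at 28 dpi (3.84%). All counts stayed within 1.5 times with cells of at least 500 genes and without cells holding 10 or more hemoglobin UMIs. Members that fell under 100 UMIs in an alternative were not checked for a change of sign. Among the rest, no member past 2-fold changed sign under any of the 8 planned or 1 added alternatives. Smaller ratios did: Tfrc in MDMs at 7 dpi (PLX5622 over vehicle) went from -0.14 to 0.76 with each cell weighted alike and to 0.78 in cells with at most 3000 genes, and Blvrb there from -0.33 to 0.03 and 0.19. Except where stated, the cause of a change was not tested. Members under 100 UMIs could not be compared at this depth.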
